A study of Mus musculus with 16 samples.

Results

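Samd9l on mouse chromosome 6 and the 4 genes of the Trim30 cluster on chromosome 7 (Trim30a, Trim30b, Trim30c and Trim30d) were followed through 9 ChIP-seq peak lists from bone-marrow macrophages. A peak was counted as a member when it overlapped the GRCm38 bounds of 1 of these 5 genes, extended by 10 kb on either side and called its window here. The 5 genes are among 49943 in the RefSeq table, 21887 of them protein-coding, and their windows held 58 of the 368675 listed peaks. The genes were chosen by their EZH2 values in earlier results of these data, peaks at Samd9l and Trim30d after nigericin that were absent from the untreated list, so these values are given as a description, without a test.

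Samd9l encodes a cytoplasmic antiviral protein of the SAMD9 family, which restricts poxviruses and restrains cell growth and protein synthesis. The Trim30 genes are rodent members of the tripartite motif (TRIM) family of ubiquitin ligases. TRIM30a, the best studied of them, dampens Toll-like receptor signalling to NF-kB and activation of the NLRP3 inflammasome, and transcription of Samd9l and Trim30a is raised by type I interferon in macrophages. EZH2 is the methyltransferase of Polycomb repressive complex that writes H3K27me3, a mark of silenced genes, whereas H3K27ac marks active promoters and enhancers on the same lysine.

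The series holds 16 samples of primary macrophages, grown from femur and tibia marrow of adult C57BL/6 mice for 5 days in M-CSF conditioned medium, of which 9 were immunoprecipitated and 7 were inputs. EZH2 was mapped in wild-type cells, untreated and after nigericin, a potassium ionophore that activates NLRP3, given to cells primed with the bacterial lipid LPS. In untreated wild-type cells p53, H3K27ac and H3K27me3 were mapped as well, and SIRT1, a deacetylase, was examined without treatment in cells of the labelled pairs Ezh2-WT and Ezh2-KO, and p53-WT and p53-KO. Each group is 1 library, no library had LPS alone, and the labels do not say how the knockouts were made or whether mice were pooled, so an effect of priming and an effect of nigericin cannot be told apart and no value has a replicate error.

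Each listed peak carries a fold enrichment, the ratio of sequenced fragments at its summit to the local background with a pseudocount of 1 on both, and a q-value, the false discovery rate given by the authors' caller. The fragment number behind each fold was recovered and is given with exact Poisson 95% intervals, which cover counting error only. At the most common background of each list, 2.74 fragments for untreated EZH2 and 2.34 for EZH2 after nigericin, the lowest listed summit held 7 fragments in both, so a smaller enrichment would not be listed. Only 17.9% of untreated and 14.8% of nigericin EZH2 peaks had a q of at most 0.05. The number of reads per library is not known from these lists. As a check of the labelled cell type, all 9 macrophage markers (Csf1r, Adgre1, Itgam, Cd68, Spi1, Lyz2, Mertk, Fcgr1 and Cd14) had an H3K27ac peak and none had an H3K27me3 peak within 1 kb of their bounds, where 33.7% and 29.9% of protein-coding genes had one. Of the 5 neutrophil markers 0 had H3K27ac, of the 3 T cell and 3 B cell markers 1 each, and of the 3 erythroid and 3 fibroblast markers 0.

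Promoters of 4 members are shown, without the Trim30b window and a second Trim30a start that are described with them, because EZH2 after nigericin and H3K27ac met at the Trim30d start, and because interferon-responsive genes are known for a short element, the ISRE, that IRF factors bind. Each RefSeq window (GRCm38.p6) runs 5′ to 3′ from 250 bases before to 50 bases after the annotated start. Capitals mark a match on either strand to the ISRE core, taken as GAAANNGAA followed by 1 more A (N is any base), or, in Samd9l, to the short form GAAANNGAA alone.
Trim30d, chr7:104507800-104508099, minus strand: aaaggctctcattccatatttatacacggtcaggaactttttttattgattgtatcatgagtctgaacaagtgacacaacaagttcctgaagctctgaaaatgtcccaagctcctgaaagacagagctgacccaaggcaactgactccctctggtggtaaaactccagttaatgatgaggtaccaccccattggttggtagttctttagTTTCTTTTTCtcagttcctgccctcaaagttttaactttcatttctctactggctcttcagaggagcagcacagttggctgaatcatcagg
Trim30a, outer start, chr7:104465144-104465443, minus strand: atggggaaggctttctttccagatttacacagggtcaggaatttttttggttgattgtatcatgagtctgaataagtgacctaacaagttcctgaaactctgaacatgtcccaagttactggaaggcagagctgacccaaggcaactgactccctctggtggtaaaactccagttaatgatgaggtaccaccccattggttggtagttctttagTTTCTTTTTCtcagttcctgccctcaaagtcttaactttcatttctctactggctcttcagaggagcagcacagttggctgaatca
Samd9l, chr6:3399522-3399821, minus strand: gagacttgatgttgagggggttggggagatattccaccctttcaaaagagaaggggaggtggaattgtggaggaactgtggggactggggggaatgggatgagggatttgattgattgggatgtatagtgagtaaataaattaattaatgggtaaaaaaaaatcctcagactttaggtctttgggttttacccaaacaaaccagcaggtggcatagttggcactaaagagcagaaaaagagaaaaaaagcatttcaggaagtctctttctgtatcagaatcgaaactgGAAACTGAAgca
Trim30c, chr7:104400729-104401028, minus strand: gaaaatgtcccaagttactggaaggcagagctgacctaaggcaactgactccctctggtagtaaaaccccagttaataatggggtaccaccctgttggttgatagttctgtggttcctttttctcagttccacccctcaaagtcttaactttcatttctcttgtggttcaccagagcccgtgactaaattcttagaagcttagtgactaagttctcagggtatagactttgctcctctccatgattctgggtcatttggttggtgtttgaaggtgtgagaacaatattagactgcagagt

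The Trim30d and outer Trim30a windows held the same ISRE core, GAAAAAGAAA, read on the strand opposite to the gene, with its first base 41 and 36 bases before the start. These windows were 90.8% identical when aligned. A second annotated start of Trim30a, which lies inside the gene and is called its inner start here, also carried the core, and its window was 70.0% identical to the outer one. The Samd9l window had no full core and 1 match to the short form, GAAACTGAA, which begins 38 bases after the start, and it was 45.8% identical to the Trim30d and 46.8% to the outer Trim30a window. Neither form was found in the Trim30b and Trim30c windows. Across 21263 promoter windows of 17492 protein-coding genes, 3.35% held the core and 8.15% the short form, which includes every core match. A match describes these letters and is not evidence of a bound factor.

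The member promoters were poor in CpG. They held 0 CpG dinucleotides at both Trim30a starts, 1 each at Samd9l, Trim30c and Trim30d and 2 at Trim30b, against a median of 13 over all windows, with quartiles of 4 and 24. Windows that met an untreated EZH2 peak had a median of 22 CpG, the 268 that met a nigericin EZH2 peak had 19 and those that met H3K27ac had 18. The 19 windows that met a nigericin EZH2 peak but neither untreated EZH2 nor H3K27me3, a set that includes Samd9l and Trim30d, had a median of 3.

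Samd9l (gene 209086, chr6:3372257-3399571, minus strand, 27315 bp) carried the strongest EZH2 peak of the 5 genes, and that peak lay at the far end of the gene from its start. In the nigericin list a peak at chr6:3370122-3376732 reached a fold of 11.7, from 38 fragments (interval 26.9 to 52.2) over a background of 2.34, which gives a fold interval of 8.34 to 15.9. Its −log10 q was 26.0. The peak was 6611 bp wide, of which 4476 bp lay in the gene and 2135 bp beyond its lower bound, and its summit was 26669 bp downstream of the start and 645 bp inside that bound. Among the 5128 nigericin EZH2 peaks it ranked 2 by fold, 2 by q, 9 by width and 26 by fragments.

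The other nigericin peaks at Samd9l were far lower. One at chr6:3378374-3378708 lay 21153 bp downstream of the start, and another at chr6:3399406-3399757 lay over the start itself. Both had a fold of 2.99 from 9 fragments (interval 4.12 to 17.1), close to the smallest number that the list holds, and a −log10 q of 0.156, short of the q threshold of 0.05. The 3 peaks together covered 4977 bp, or 18.2% of the gene.

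The untreated EZH2 list had no peak in the Samd9l window. Its nearest peak lay 45525 bp beyond the gene bounds, with a fold of 2.14 from 7 fragments, and the nearest on the other side lay 419499 bp away. H3K27me3 was likewise absent, with its nearest peak 52645 bp from the start (2.97, 11 fragments). Beyond the 3 peaks at the gene, the next nigericin EZH2 peaks were 170748 and 778079 bp from the bounds, so the enrichment stood alone on this stretch of chromosome 6.

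Acetylation marked the opposite end of Samd9l. A single H3K27ac peak at chr6:3397087-3399437 had a fold of 3.84, from 51 fragments over a background of 12.5, and ended 134 bp short of the start. It met the small EZH2 peak over the start and lay more than 20 kb from the high EZH2 peak. SIRT1 peaks were listed at Samd9l in the p53 wild-type library (folds of 2.32, 2.77 and 3.39) and in the p53 knockout library (2.21 and 2.76), each from 3 to 5 fragments, and in neither Ezh2 library. No p53 peak was listed, the nearest being 146393 bp from the start.

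**Figure D1:**
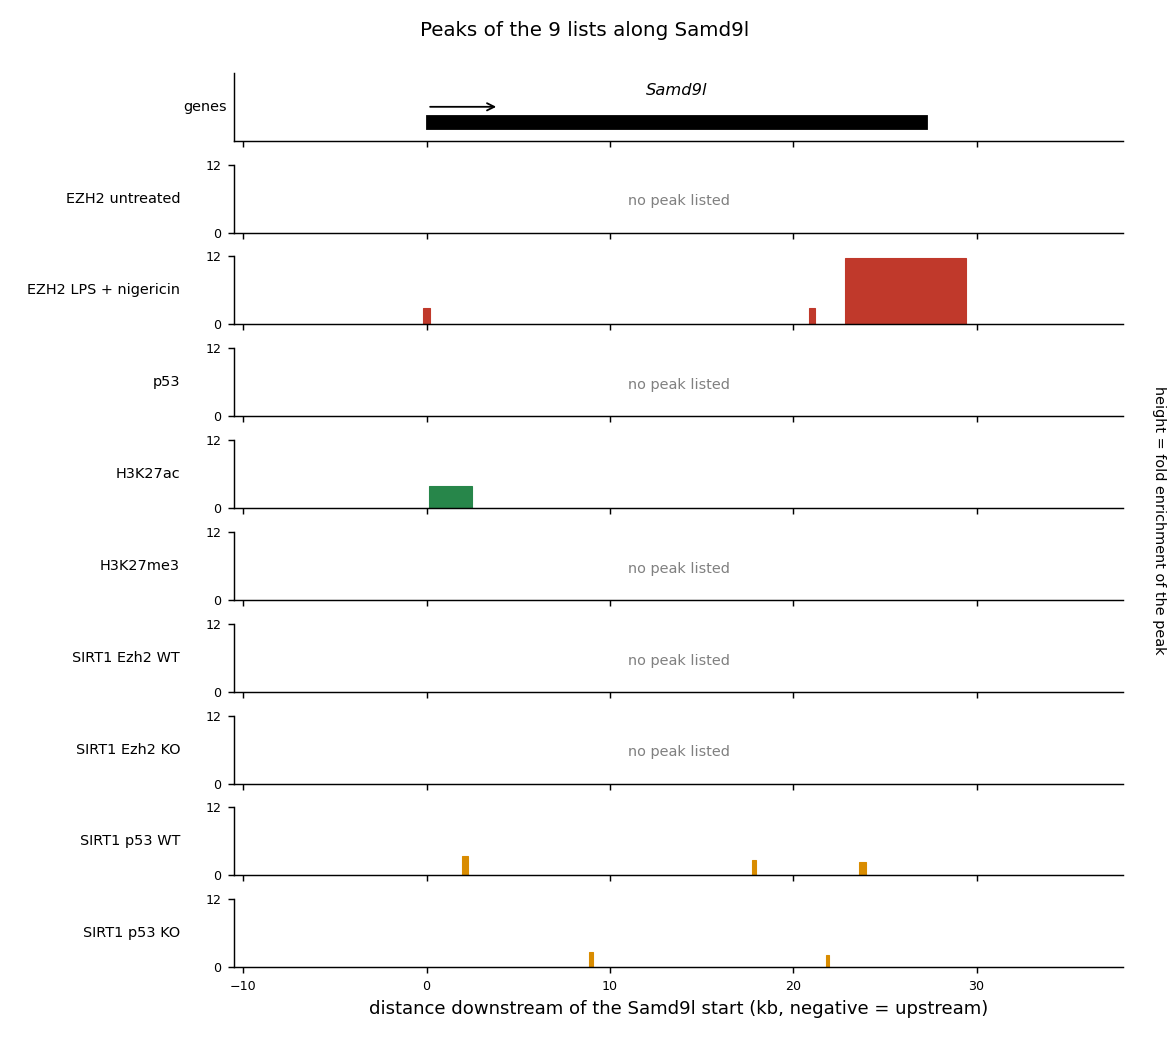
Listed peaks along Samd9l in each of the 9 libraries, plotted by distance downstream of the gene's start in kb (x axis) with the fold enrichment of each peak as its height (y axis, 0 to 12). After LPS and nigericin EZH2 had a wide peak of 11.7 at the far end of the gene and 2 peaks of 2.99, while the untreated EZH2 and H3K27me3 rows hold none.

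Trim30d (gene 209387, chr7:104470014-104507853, minus strand, 37840 bp) showed a different layout: many modest EZH2 peaks from end to end rather than 1 high peak. The nigericin list had 10 peaks in its bounds and 1 more, at chr7:104469637-104469966, 48 bp beyond its lower bound (3.29, 10 fragments). From the start downstream, the 10 summits lay at 540, 2792, 5333, 5852, 10116, 12814, 19571, 21669, 26163 and 32362 bp. Their folds in that order were 4.49, 2.93, 2.14, 1.67, 4.90, 3.59, 3.29, 2.99, 2.69 and 3.15, and they rested on 14, 10, 17, 20, 16, 11, 10, 9, 8 and 10 fragments. The spacing between neighbouring summits ran from 519 to 6757 bp with a median of 2698 bp.

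The highest Trim30d peaks were those at chr7:104496840-104498496 (4.90, −log10 q of 4.21) and over the start at chr7:104507168-104508152 (4.49, −log10 q of 3.04), which ranked 65 and 120 by fold among the 5128. They were also the only 2 of the 10 with a q of at most 0.05, so the other 8 rest on the list's looser limit. The lowest folds, 1.67 and 2.14, belonged to neighbouring peaks over raised backgrounds of 11.6 and 7.43 fragments. The first of these, at chr7:104499218-104502072, overlapped the pseudogene Gm16464 by 2759 bp, and whether its reads belong to this copy alone was not tested. Together the 10 peaks covered 10257 bp, or 27.1% of the gene.

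H3K27ac covered the Trim30d start with a peak at chr7:104506138-104509016, of fold 4.54 from 81 fragments over a background of 17.1. It met the EZH2 peak over the start and none of the other 9 EZH2 peaks in the gene. Untreated EZH2 and H3K27me3 had no peak anywhere in the cluster, which spans 152456 bp from first to last bound. The nearest untreated EZH2 peaks lay 195981 bp below (2.01, 8 fragments) and 1138041 bp above the cluster, and the nearest H3K27me3 peaks 1661726 bp below and 898384 bp above.

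**Figure D2:**
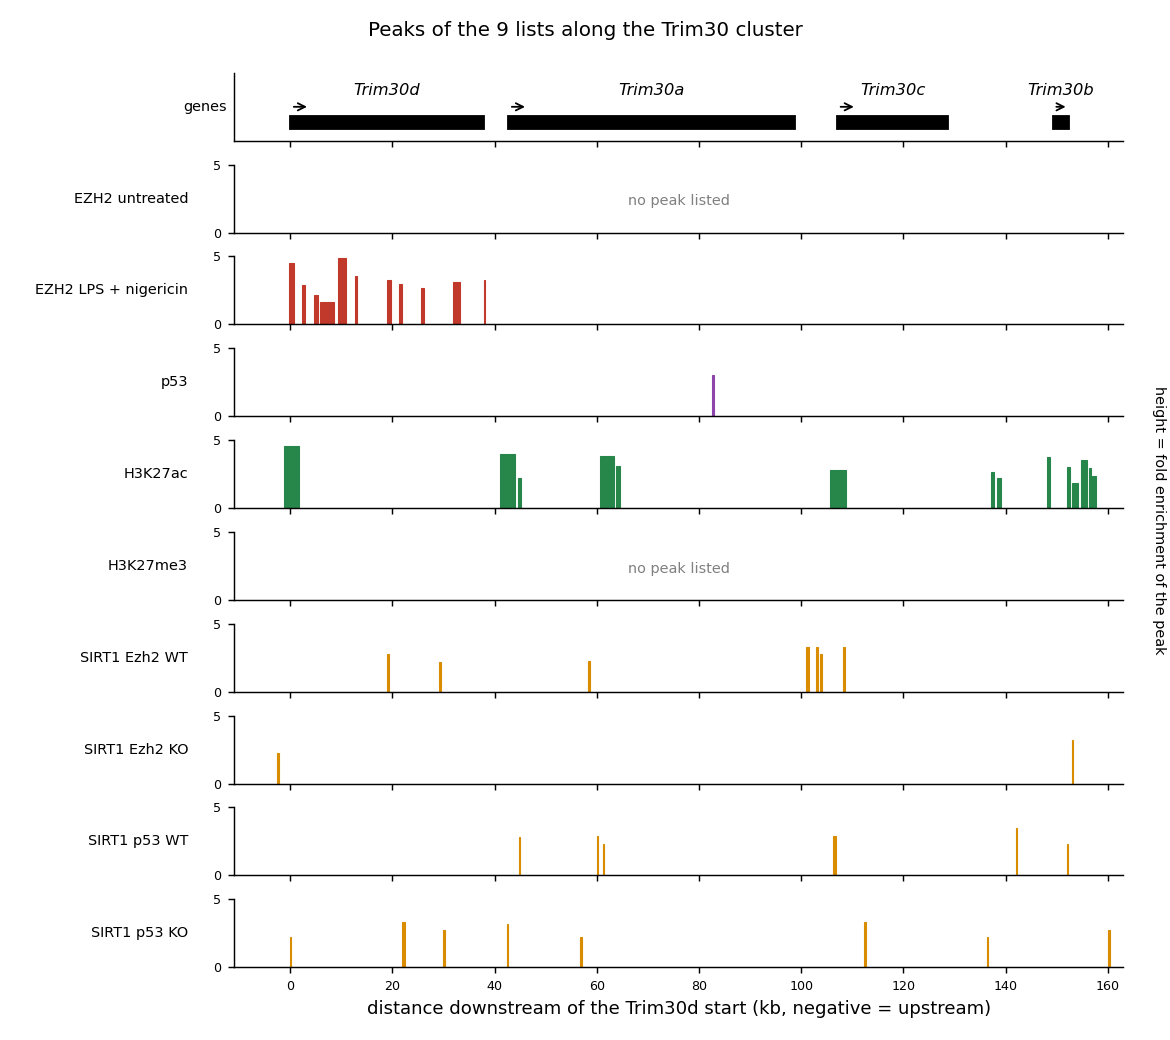
Listed peaks along the Trim30 cluster in each of the 9 libraries, plotted by distance downstream of the Trim30d start in kb (x axis) with fold enrichment as height (y axis, 0 to 5). The nigericin EZH2 peaks, with folds of 1.67 to 4.90, all lie in or 48 bp beyond Trim30d, whereas H3K27ac peaks recur at the starts of Trim30d, Trim30a and Trim30c and around Trim30b.

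Trim30a (gene 20128, chr7:104409025-104465193, minus strand, 56169 bp) begins 4820 bp from the lower bound of Trim30d, yet no EZH2 peak of either library lay in its bounds. The 2 nigericin peaks in its window (3.29 and 3.15) were the ones nearest to it at Trim30d, the closer of them 4444 bp upstream of the outer start. H3K27ac lay over both annotated starts. The peak over the outer start, chr7:104463886-104466895, had a fold of 4.0 from 97 fragments over a background of 23.5, and the peak over the inner start, chr7:104444571-104447197, had 3.81 from 87 fragments. Smaller H3K27ac peaks of 3.11 and 2.20 flanked them inside the gene. The single p53 peak of all 5 windows lay in Trim30a, at chr7:104424907-104425274, 40113 bp downstream of the outer start. It had a fold of 3.06 from 8 fragments and a −log10 q of 0.

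Trim30c (gene 434219, chr7:104379117-104400852, minus strand) had H3K27ac over its start, with a fold of 2.83 from 59 fragments over a background of 20.2 at chr7:104399012-104402210. Further H3K27ac peaks of 2.25 and 2.66 lay in its window, that of 2.25 inside the bounds of the neighbouring gene Gm38525. EZH2 had no peak in the Trim30c window in either condition. Trim30b (gene 244183, chr7:104355398-104358646, minus strand, 3249 bp) is the shortest member and the only one with no peak of any list over its start. Of the 6 H3K27ac peaks in its window, with folds of 1.83 to 3.76, 1 lay in its bounds (3.02). The closest to its start was 608 bp upstream, at chr7:104359254-104359730 (3.76, 16 fragments). Its window also overlaps Trim12c, a TRIM5-related restriction factor, and the protein-coding gene Gm38525. The bounds of Gm38525 hold all of Trim30b and the peak closest to its start, so these peaks cannot be given to 1 gene. The nearest nigericin EZH2 peak was 110991 bp from the Trim30b start.

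Just outside the windows, the H3K27ac list had a peak 665 bp beyond the edge on the Trim30b side (3.01, 12 fragments) and the SIRT1 list of Ezh2 wild-type cells one 1421 bp beyond the edge on the Trim30d side (2.75, 4 fragments). Inside the edge on the Trim30b side was 1 peak of the SIRT1 list of p53 knockout cells at chr7:104347394-104347881 (2.76, 4 fragments).

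Set beside the genome, the members split by mark. A nigericin EZH2 peak lay in 3 of 5 windows, against 12.5% of protein-coding genes, though the Trim30a count comes only from peaks it shares with Trim30d. Untreated EZH2 had a peak in 0 of 5 windows, against 19.6%. H3K27ac had one in 5 of 5, against 41.6%, and H3K27me3 in 0 of 5, against 42.7%. Nigericin EZH2 without untreated EZH2 described the same 3 members and 4.34% of protein-coding genes. With H3K27ac present and H3K27me3 absent as further conditions, these 3 were among 278 genes, or 1.27%. Because the genes were chosen for this contrast, nothing is read from these shares.

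**Figure D3:**
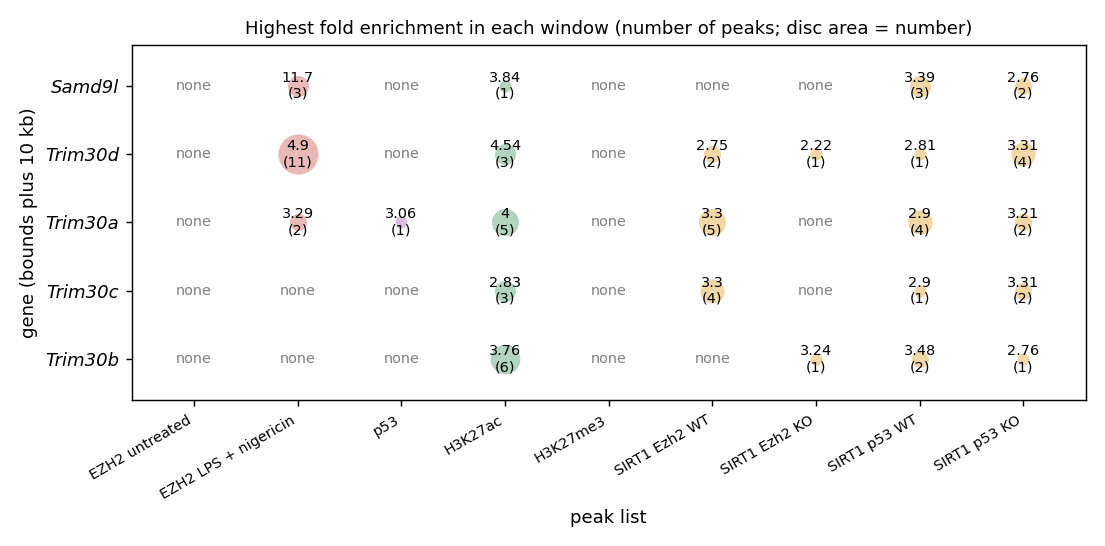
Highest fold enrichment in the window of each member gene (rows) for each peak list (columns), with the number of peaks in brackets and as the area of the disc. Untreated EZH2 and H3K27me3 have no peak at any member, H3K27ac has one at each of the 5, and neighbouring Trim30 windows share some peaks.

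Of the 14 nigericin EZH2 peaks in the windows, none met an untreated EZH2 peak, where 65.5% of the whole nigericin list met none. That count is fixed by the choice of genes and reads as description only. None of the 14 met H3K27me3, although 52.6% of the list did. H3K27ac was met by 2 of the 14, those over the starts of Samd9l and Trim30d, against 4.13% of the list. At Samd9l they met only at their edges, the H3K27ac peak ending 134 bp short of the start. At an overlap of 50% only the Trim30d peak met H3K27ac. A peak of any SIRT1 list was met by 3 of the 14, against 14.6%, and p53 by 0. The median fold of the 14 was 3.07, and that of all nigericin peaks 2.69. The 14 peaks lie at 2 loci, 3 at Samd9l and 11 in or beside Trim30d, so they are not separate observations. As the genes were chosen for their EZH2 peaks, these shares and the median fold are also description only.

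**Figure D4:**
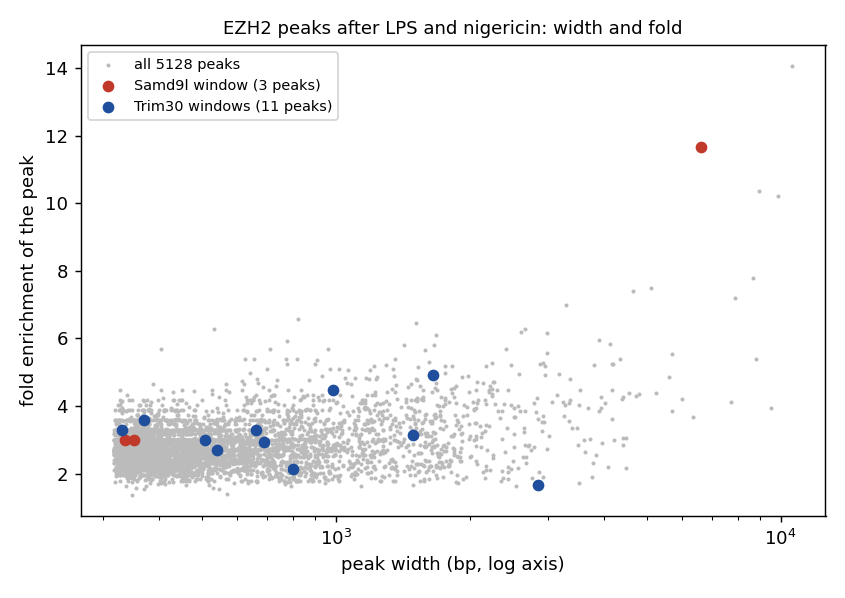
Width in bp (x axis, log scale) and fold enrichment (y axis) of all 5128 EZH2 peaks after LPS and nigericin, with the 3 peaks of the Samd9l window and the 11 of the Trim30 windows in colour. The 6611 bp Samd9l peak stands near the top at 11.7, and the Trim30 peaks lie between 1.67 and 4.90 among the bulk of the list.

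By number of nigericin peaks in the gene bounds, Trim30d with 10 was among 6 protein-coding genes, or 0.0274%, that had 10 or more. The other 5, chosen here after their values were seen, were Zfp978 (24), Zfp993 (16), Gvin1 (12), Aoah (11) and Gm7592 (10). Aoah, which encodes a lipase that inactivates LPS, was the only one of these besides Trim30d with no untreated peak, and its peaks covered 4.03% of a gene of 242515 bp. At least 3 nigericin peaks lay in the bounds of 0.845% of protein-coding genes. Samd9l with 3 peaks was 1 of 14 genes, or 0.064%, with at least 3 nigericin and no untreated peaks in their bounds. Among 551 genes of at least 10 kb with nigericin and no untreated EZH2 peaks, Trim30d (27.1%) and Samd9l (18.2%) ranked 1 and 2 by the share of the gene covered. The next, Smcr8, had 11.4%. Among all 13962 genes of that length, with untreated peaks allowed, they ranked 16 and 31, so wide cover as such is not particular to them. Both genes were chosen for nigericin peaks absent from the untreated list, so these counts and ranks are description only. Of the 10 Trim30d peaks behind its cover, 2 had a q of at most 0.05, and these were 1657 and 985 bp wide. The widest of the 10, at 2855 bp, was the peak of fold 1.67 that overlaps the pseudogene Gm16464. Whether the rank of Trim30d holds without the peaks short of that q was not tested.

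**Figure D5:**
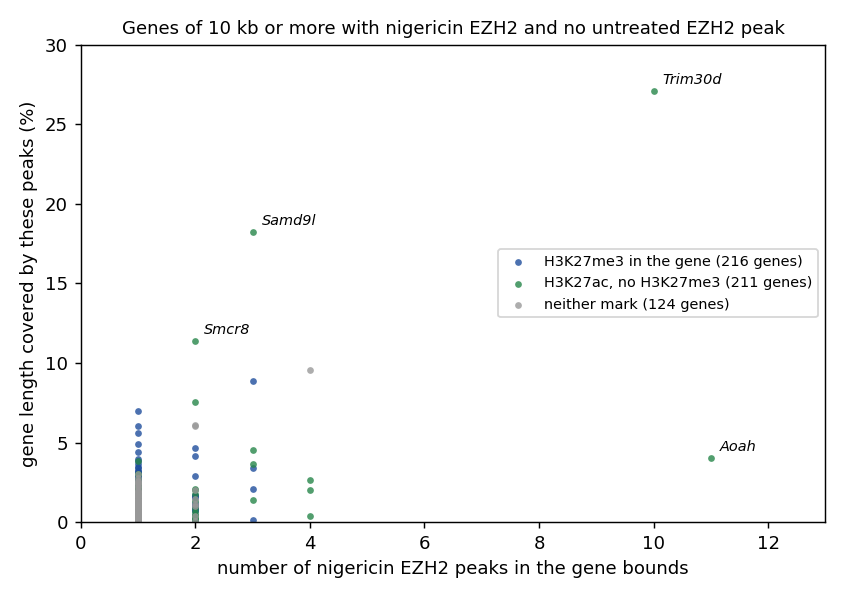
Number of nigericin EZH2 peaks in the gene bounds (x axis) and the percent of the gene they cover (y axis) for the 551 protein-coding genes of at least 10 kb with nigericin and no untreated EZH2 peaks, coloured by the histone marks in the gene. Trim30d (10 peaks, 27.1%) and Samd9l (3 peaks, 18.2%) lie above the other genes in cover, both in the class with H3K27ac and no H3K27me3. Both were chosen for nigericin peaks absent from the untreated list.

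At gene starts the joint presence of EZH2 and acetylation was rare. Of 21263 annotated starts, 9.11% lay under an H3K27ac peak, 14.1% under H3K27me3, 2.89% under untreated EZH2 and 0.875% under nigericin EZH2. Only 1 start, that of Trim30d, lay under both, or 0.0047%. The Trim30d and outer Trim30a promoters are 90.8% identical, and whether reads at these starts were placed on the right copy was not tested. Within 1 kb, 25.8% of starts had H3K27ac and 3.37% nigericin EZH2. When both were required within 1 kb and untreated EZH2 was required to be absent there, 9 starts of 7 genes remained, or 0.0423%, and these included Samd9l and Trim30d. Trim30d had the highest nigericin fold of the 7, 4.49, and the other 6 ranged from 2.54 to 2.99. Since Samd9l and Trim30d were chosen for nigericin peaks absent from the untreated list, their place among these starts is description only. The histone and nigericin libraries are different cultures, untreated and treated, so the peaks were not shown to lie on the same chromatin.

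SIRT1, an NAD-dependent deacetylase, had 28 peaks in the windows: 7 in the Ezh2-WT library, 2 in Ezh2-KO, 9 in p53-WT and 10 in p53-KO. Each rested on 3 to 5 fragments with a −log10 q of 0, at or just above the smallest summit that these lists hold. None of the 28 met a peak of another SIRT1 library, where 8.95, 18.2, 10.9 and 10.8% of the 4 lists did. H3K27ac was met by 1, 1, 5 and 2 of them, against 9.97, 15.5, 12.3 and 13.3% of the lists. SIRT1 peaks lay over the outer Trim30a start (3.21, 5 fragments) and the Trim30d start (2.21, 3 fragments) in the p53-KO list and over neither start in the other 3 lists, and a difference between genotypes was not tested. The members with a SIRT1 peak in the window numbered 3, 2, 5 and 5 in that order, and the shares of protein-coding genes were 76.4, 44.5, 70.9 and 71.8%. The Ezh2 knockout list is also the shortest of the 4, with 18170 peaks against 56323 to 74767, so its lower count does not measure a change. For p53, 1 of 5 members had a peak in the window, against 7.5% of protein-coding genes.

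Other interferon-inducible genes were read from a list of 32, of which 30 matched as protein-coding. H3K27ac lay in the window of 29 of the 30, against 41.6% of all protein-coding genes, and H3K27me3 in 10, against 42.7%. Untreated EZH2 lay in 5, against 19.6%, and nigericin EZH2 in 8, against 12.5%. The nigericin peak came without an untreated one in 7 of the 30, against 4.34% of all protein-coding genes. The highest nigericin folds were 5.18 at Herc6, an ISG15-conjugating ligase, 4.72 at Ifit1, which binds viral RNA, 3.49 at Irf9, a DNA-binding factor of the interferon response, 3.29 at Ifit3b, and 2.88 at Ifit3 and at Rsad2, the antiviral enzyme viperin. All were below the 11.7 of Samd9l, and of them only Herc6 exceeded 4.90, the highest fold in the Trim30d window. Because Samd9l and Trim30d were chosen for their nigericin peaks, nothing is read from this difference in fold. At Irf9 the nigericin peaks lay in the window but outside the gene bounds, and that window also held H3K27me3 (highest fold of 5.44). The Ifit genes are neighbours whose windows can share a peak, so they are not separate observations.

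Of 12 other TRIM genes, the chromosome 7 neighbours included, 10 had H3K27ac and 3 H3K27me3 in the window, against the same 41.6 and 42.7%. None had an untreated EZH2 peak, against 19.6%. A nigericin peak lay at 2, close to the share of 12.5% over all protein-coding genes: Trim34a (2.69) and Trim25 (2.99), the ligase that activates RIG-I. The Trim34a peak is also the next nigericin peak below the Trim30 cluster, 109085 bp from it. Trim30d held 10 peaks in its bounds, 2 of them with a q of at most 0.05, where these TRIM genes held 1 or 0. Because Trim30d was chosen for its nigericin peaks, nothing is read from this contrast.

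The genes most like Samd9l were ranked by the distance between the log2 of their highest folds over the 9 lists, with 0 where no peak was listed. Over these 9 libraries the 5 nearest with a formal symbol were Ifit1 (1.75), Ranbp2 (1.85), Cd151 (2.0), Tnip3 (2.16) and Bcl2l15 (2.23). Trim30d lay at 2.28, Trim30a at 3.0, Trim30b at 3.93 and Trim30c at 3.98, and the median of all protein-coding genes was 4.64. The 5 shared with Samd9l a nigericin EZH2 and an H3K27ac peak and the absence of untreated EZH2, p53 and H3K27me3, with nigericin folds of 2.69 to 4.72 against its 11.7. At Cd151 the nigericin EZH2 signal lay in the window but outside the gene bounds. The ranking used these same folds, and Samd9l was chosen for its EZH2 peak, so the shared pattern and the difference in fold are description only. With peaks of a q of at most 0.05 alone, only Ifit1 stayed among the 5, and Gvin1, an interferon-inducible GTPase, was nearest (0.316, nigericin fold of 10.2).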

How the data were processed

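The data are 9 peak lists, 1 per immunoprecipitated library and none pooled. Per the series' design text each combines a ChIP library with an input, whose pairing is not stated. The submitters' processing notes name MACS2, deepTools and the build GRCm38/mm10, per the labels. For versions, aligner, read filters and thresholds, nothing is given in the sources used here. Among the columns, the deposited fold column is a ratio to local background. The deposited −log10 columns hold the authors' p-value and q-value. The deposited score column was not used beyond a check that it is a multiple of a −log10 column.

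The highest listed q was 0.0488 and 0.0498 in the histone lists, and the highest listed p 0.00964 to 0.00994 in the others, where q reached 1. Fragments were solved from the fold and p under a Poisson model with a pseudocount of 1 and were whole (tolerance 0.001 in −log10 p) in at least 99.98% of each list, and the solver was tested on simulated data. Chromosomes 1 to 19, X and Y were used. Coordinates are 1-based. Gene bounds came from RefSeq's GRCm38.p6 table and strands and promoters from the RefSeq promoter table, and all 5 members matched both. A genome and protein sequences were not used here. An overlap of 1 bp counted as meeting.

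With 1 library per group there is no test between groups, and the p-values of the authors' caller concern peaks. Members and lists were chosen with earlier results of these data known. The genes named were the members, genes overlapping a window, the 5 nearest to Samd9l and up to 6 members per gene list with a nigericin EZH2 peak, by fold. Any other gene was chosen after its values were seen. Alternatives were flanks of 0, 5 and 20 kb, a q of at most 0.05, all genes of the table, 50% overlap, peaks within 1 or 5 kb, and EZH2 lists of equal length. Python 3.11.15, pandas 2.3.3, numpy 2.4.6, scipy 1.17.1, biopython 1.88 and matplotlib 3.10.9 were used.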

Additional observations from a re-analysis of the deposited data

How the results depend on the processing

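No paired analysis was possible because each group is 1 library. Of 118 alternatives, 49 left the value within 1.5 times or its counting interval, 69 moved it and 0 reversed a direction. The values are counts and percents, which carry no sign, so the absence of reversals is not a result. With a q of at most 0.05 the windows held 3 nigericin EZH2 peaks (1 at Samd9l and 2 at Trim30d), all 3 of which met no untreated peak, and 0 for p53 and each SIRT1 library. The 14 nigericin peaks met no untreated peak under 50% overlap, within 5 kb and with lists of equal length. Without flanks the windows held 8 H3K27ac peaks and 4 and 0 SIRT1 peaks in Ezh2 wild-type and knockout cells. At 50% overlap 1 nigericin peak, that over the Trim30d start, met H3K27ac. With peaks within 1 kb counted, 4 nigericin peaks met SIRT1 of p53 knockout cells. Interferon genes with a peak at a q of at most 0.05 numbered 0 for untreated EZH2, 3 for nigericin EZH2, 0 for p53 and 0, 2, 0 and 1 for SIRT1 (Ezh2-WT, Ezh2-KO, p53-WT, p53-KO). Without flanks they numbered 1 for untreated EZH2, 1 for p53, 1 for H3K27me3 and 17, 8 and 15 for the first 3 SIRT1 libraries. Of the 5 genes nearest to Samd9l, 1 was shared with the ranking at that q. The percent of protein-coding genes with a peak is given in the order untreated EZH2, nigericin EZH2, p53, H3K27ac, H3K27me3 and the 4 SIRT1 libraries. Over all genes it was 14.4, 8.82, 6.01, 29.6, 34.4, 64.0, 31.6, 56.9 and 57.5. At a q of at most 0.05, which left the histone lists whole, it was 6.46, 2.77 and 0.137 for the first 3 and 0.809, 2.0, 0.667 and 1.23 for SIRT1. Without flanks it was 13.5, 8.26, 5.27, 31.4, 28.5, 56.7, 29.7, 52.1 and 53.3. With 5 kb it was 16.7, 10.6, 6.45, 37.3, 35.9, 69.1, 38.3, 64.1 and 65.0. With 20 kb it was 24.7, 16.1, 9.52, 47.6, 50.6, 84.3, 53.6, 79.0 and 79.6.

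The SIRT1 peaks in the windows rest on 3 to 5 fragments each, at or just above the smallest number in their lists. The lists hold called peaks only, so enrichment below the caller's limit is not seen.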

Other observations

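The 7 genes with H3K27ac and nigericin EZH2, and no untreated EZH2, within 1 kb of a start were chosen after their values were seen. Besides Samd9l and Trim30d they were Il1rl2 (nigericin fold of 2.89), the receptor subunit for interleukin-36, Scpep1 (2.68), Gm4606 (2.99), Trim69 (2.54), another TRIM ligase, and Kdm3a (2.54), a histone H3K9 demethylase. None had H3K27me3 within 1 kb of the start. Only the Trim30d peak had a q of at most 0.05, with a −log10 q of 3.04.

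The 14 genes with at least 3 nigericin and no untreated EZH2 peaks in their bounds, also chosen after their values were seen, were of different kinds. With Samd9l and Trim30d, 9 of them had H3K27ac and no H3K27me3: Aoah, Maml2, Nfkb1, Rnf213, Cbl, Herc6 and Ifit1bl1 were the others. H3K27me3 lay in 4, Myh14, Nell1, Panx2 and Pax8, and neither mark in Gm2427. Of the 551 genes of at least 10 kb with nigericin and no untreated EZH2 peaks, 211 had H3K27ac without H3K27me3. H3K27me3 lay in 216 of the 551 and neither mark in 124. Nfkb1, the p50 subunit of NF-kB, had 4 nigericin peaks over 2.65% of its length, and Rnf213, an interferon-inducible ligase, had 4 over 2.05%. Among the same 551 genes, Tnfaip3, the NF-kB inhibitor A20, had 2 peaks over 7.56% of its length. Each had a fold of 2.69 from 8 fragments, close to the smallest number that the list holds. Gvin1, which had 1 untreated peak and so fell outside these sets, had 12 nigericin peaks over 42.4% of its length.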
